A study of Mus musculus with 4 samples.

Results

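The genes described here encode 5 laminin chains (Lama2, Lama4, Lamb1, Lamb2 and Lamc1), both nidogens (Nid1 and Nid2) and perlecan (Hspg2), and were taken by symbol as 8 of the 32285 genes in the count tables. Basement membranes are thin sheets of matrix that surround capillaries, adipocytes, nerves and muscle fibres. Laminins are trimers of 1 alpha, 1 beta and 1 gamma chain that assemble into a network at the cell surface, nidogens tie that network to type IV collagen, and perlecan is a heparan sulfate proteoglycan that binds both and holds growth factors. In fat, both the adipocytes and the endothelial cells rest on such a sheet, and matrix is known to be remodelled when fat pads expand.

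The data are single-cell RNA-seq of brown adipose tissue (BAT) from which mature adipocytes had been removed, leaving the stromal vascular fraction (SVF), in 4 libraries that each pooled 3 mice. The labels give the strain as C57BL6/J throughout, and the study's methods give that of the db/db mice as B6.BKS(D)-Leprdb/J. The WT library came from wild-type mice aged 10 weeks. The db/db libraries came from mice without a working leptin receptor, which become obese and diabetic, aged 8 weeks (db/db 8w) and 16 weeks (db/db 16w). The HFD library came from mice fed a high-fat diet and is labelled 10 weeks, while the study's methods start the diet at 10 weeks of age, so the age at collection is not clear. With 1 library per group, differences between libraries had no replicate check, and no test was run. Every interval given here is a 95% interval for counting error alone, and the spread between mice or preparations cannot be told apart from the effect of genotype, age or diet.

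After quality limits 5944 cells were kept from WT, 11648 and 5833 from the younger and older db/db mice and 5462 from HFD mice, with a median of 2733 to 6218 UMIs (unique molecular identifiers, 1 per captured RNA molecule). Cells were put into classes from the raw UMIs of marker genes, none of which is among the 8. The stromal gate (Pdgfra, Dpt, Lum, Dcn, Col1a1 and Col1a2) held 4384, 6772, 1174 and 1605 cells taken in the order WT, then both db/db ages from young to old, then HFD, and lists of 4 values keep this order throughout, while lists of 3 leave out WT. The endothelial gate (Pecam1, Cdh5 and 6 other markers) held 10, 76, 1268 and 1132 cells, so that endothelial levels were not compared in WT and rest on 169103 UMIs in db/db 8w. Markers left out of the gates followed them: Kdr, an endothelial receptor, was at 869 to 1044 CPM (UMIs of a gene per 1000000 UMIs of the class) in the endothelial cells of the last 3 libraries and at 7.23 to 36.0 CPM in their stromal cells. Serpinf1, a protein secreted by stromal cells, was at 1282 to 1529 CPM in stromal cells of the 4 libraries and at 2.48 to 29.6 CPM in the endothelial cells of the last 3. In db/db 16w, 37.7% of cells carried Xist, an RNA of the inactive X chromosome, against at most 0.421% in the other libraries, although the study describes its mice as male. Genes of the Y chromosome were found in 62.7%, 43.1%, 6.10% and 61.6% of cells. The part of these differences in the results was not tested. In db/db 16w they cannot be told apart from genotype or age.

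The genes lie on 7 chromosomes, Lama2 and Lama4 sharing chromosome 10 (GRCm38, GENCODE M21). Lama2 (ENSMUSG00000019899) is the longest, chr10:26980036-27619758 on the minus strand, a span of 639723 bases, and Lama4 (ENSMUSG00000019846) is at chr10:38965515-39110188 on the plus strand. Lamb1 (ENSMUSG00000002900) lies at chr12:31265234-31329644, Lamb2 (ENSMUSG00000052911) at chr9:108479736-108490530 and Lamc1 (ENSMUSG00000026478) at chr1:153218922-153332786, the last on the minus strand. Nid1 (ENSMUSG00000005397) lies at chr13:13437551-13512269, Nid2 (ENSMUSG00000021806) at chr14:19751265-19811787 and Hspg2 (ENSMUSG00000028763) at chr4:137468769-137570630, all on the plus strand. None overlaps a counted gene on its own strand. On the other strand Lama2 overlaps 4930579H20Rik and Gm48084, and Nid1 overlaps Gm48682, which were at most at 4.09 CPM in stromal cells, and Nid2 overlaps Rtraf. Rtraf, a tRNA ligase complex subunit, was at 116, 122, 220 and 142 CPM in stromal cells, and how far the counting kept the strands apart is not given in the sources used here.

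RefSeq promoter windows (GRCm38.p6) were at hand for 5 of the 8 genes. Those of Lama2 and Hspg2 are shown as an example of a gene nearly absent from endothelial cells and of one that both classes held. Each runs 5′ to 3′ on the gene's strand from 250 to 51 bases before the start, with matches to the GC box GGGCGG, searched on both strands, in capitals.
Lama2, chr10:27616993-27617192, minus strand: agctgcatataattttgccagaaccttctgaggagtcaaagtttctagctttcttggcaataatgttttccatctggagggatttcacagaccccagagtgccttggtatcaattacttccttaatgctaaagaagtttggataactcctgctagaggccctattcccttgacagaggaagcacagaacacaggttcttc
Hspg2, chr4:137468553-137468752, plus strand: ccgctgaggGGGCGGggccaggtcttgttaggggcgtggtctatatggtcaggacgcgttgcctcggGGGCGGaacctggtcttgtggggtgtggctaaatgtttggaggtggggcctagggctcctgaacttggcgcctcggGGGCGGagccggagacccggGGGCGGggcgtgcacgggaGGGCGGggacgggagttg
The Lama2 window held 0 CpG dinucleotides and 43.0% G or C, and the Hspg2 window held 17 CpG and 70.0%, beside medians of 4 CpG and 51.5% over 32851 promoters. The window of Lamb2, the gene whose levels differed least between the classes, held 2 CpG and 44.5% and thus lay nearer to that of Lama2. GC boxes numbered 5 in Hspg2, 2 in Lamb1, 1 in Nid1 and 0 in Lama2 and Lamb2. Of all promoters, 24.6% held at least 1 and 0.74% held 5 or more. The Lama2 window lies inside the span that GENCODE gives the gene, downstream of its outermost start, so other starts of Lama2 are not shown here.

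Stromal cells gave more UMIs of each of the 8 genes than any other class in each library. In WT they gave 98.6% to 99.2% of the UMIs of 7 genes, while giving 78.7% of all UMIs. They gave 93.1% of the UMIs of Nid2, for which immune cells gave a further 6.58%. Endothelial cells gave only 0.0438% of all WT UMIs, so an endothelial part could hardly appear in that library. In db/db 16w stromal cells gave only 16.7% of all UMIs and still 74.1% (Lamb2) to 95.5% (Lama2) of those of the 8 genes. In HFD, where endothelial cells gave 16.9% of all UMIs, their part reached 29.1% of Lamb2 and 27.7% of Hspg2 UMIs, against 0.902% of Lama2 UMIs. Stromal cells there gave 51.6% of Lamb2 and 54.7% of Hspg2 UMIs, while giving 27.6% of all UMIs. Lamb2 and Hspg2 were thus the transcripts with the largest endothelial part in that library, and Lama2 the one with the smallest.

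Over all cells, a level also depends on how many stromal cells a library holds. Lama2 was at 340 CPM of all UMIs in WT and at 80.1 CPM in db/db 16w, although its stromal level was nearly the same in both. Nid2 was at 23.0, 36.9, 29.9 and 38.3 CPM over all cells and Hspg2 at 215, 268, 162 and 209 CPM. Fewer stromal cells and less RNA per stromal cell cannot be told apart in a level over all cells, so the classes are given separately from here on.

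Lama2, the alpha 2 chain of the laminin that coats muscle fibres and nerves, had similar levels in the stromal cells of the libraries. Its level was 428, 422, 458 and 415 CPM, with log2 ratios to WT of -0.02, 0.10 and -0.05 in the obese libraries. As a mean of per-cell CPM the ratio of db/db 16w was 0.44. After each cell was thinned to 1000 UMIs, leaving out shallower cells, 32.5%, 32.0%, 37.8% and 32.0% of stromal cells had a Lama2 UMI. Unthinned shares were 79.1%, 58.8%, 71.3% and 80.2%, with median depths of 6931, 3110, 2817 and 5109 UMIs.

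Lama4, the alpha 4 chain of vessel and adipocyte laminins, was at 251, 252, 200 and 282 CPM in stromal cells. It was lower in db/db 16w than in WT (log2 ratio -0.33, interval -0.43 to -0.23) and higher in HFD (0.16, interval 0.10 to 0.23), both under the 2-fold limit used for calls. Neither alpha chain was thus called in the stromal cells of an obese library.

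The beta chains moved apart. Lamb1 was at 250, 353, 455 and 411 CPM in stromal cells, higher than WT in each obese library by 1.42-, 1.82- and 1.65-fold. Lamb2, the beta 2 chain known from muscle, kidney and vessel basement membranes, was at 330, 236, 199 and 133 CPM and thus lowest in HFD, where it was 2.47-fold lower than in WT (log2 ratio -1.30, interval -1.39 to -1.22). Of the UMIs of both beta chains together, Lamb1 held 43.1% in WT stromal cells and 75.5% in those of HFD. In db/db it held 59.97% in the younger and 69.6% in the older library. The intervals of these shares do not overlap, but each rests on UMIs counted in 1 library. Their separation therefore does not show a difference between groups of mice. These shares compare libraries for the same pair of genes and are not a ratio of molecules, since capture at the 3′ end differs between genes.

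Lamc1 encodes the gamma 1 chain that nearly all laminins of these tissues carry. Its stromal level was 680, 617, 538 and 383 CPM, lower than WT in each obese library and 1.78-fold lower in HFD. Nid1 was at 1811, 1543, 1346 and 1708 CPM, with log2 ratios to WT of -0.23, -0.43 and -0.08.

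Nid2 and Hspg2 were higher in the stromal cells of every obese library. Nid2, the second nidogen, was at 27.2, 63.4, 152 and 91.5 CPM, so that the obese libraries held 2.33-, 5.59- and 3.37-fold the WT level. Thinned to 1000 UMIs, 2.55%, 5.99%, 16.9% and 8.67% of stromal cells had a Nid2 UMI, beside 0.678%, 0.412%, 0.327% and 0.311% of immune cells. Unthinned, the stromal shares were 16.6%, 18.02%, 37.7% and 35.1% and the immune shares 5.79%, 2.40%, 1.62% and 1.24%, with immune median depths of 6568, 4952, 5042 and 5516 UMIs. Hspg2 was at 270, 472, 799 and 413 CPM, 1.75-, 2.96- and 1.53-fold the WT level. Of both genes db/db 16w held the highest level.

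**Figure D1:**
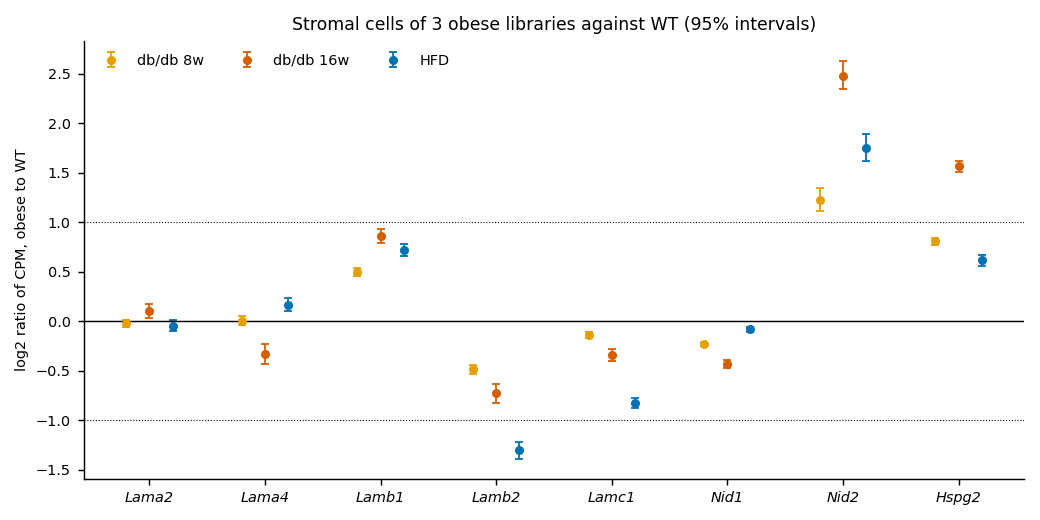
Log2 ratio of stromal CPM in each obese library to the WT library for the 8 genes, with 95% intervals for counting error and dotted lines at 2-fold. Nid2 lies above the upper line in all 3, Hspg2 above it in db/db 16w, and Lamb2 below the lower line in HFD.

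A call was set at a ratio of at least 2 among genes with a mean of at least 20 CPM, which all 8 genes passed. Against WT, 1 of 8 was called higher (Nid2) and 0 lower in db/db 8w, where 3.2% of 5938 genes were called higher and 2.48% lower. In db/db 16w, 2 of 8 were called higher (Nid2 and Hspg2) and 0 lower, where 12.4% of 5886 genes were called higher and 12.8% lower. In HFD, 1 of 8 was called higher (Nid2) and 1 lower (Lamb2), where 7.85% of 6037 genes were called higher and 7.14% lower. The median log2 ratio of the 8 was -0.01, -0.12 and 0.06, against 0.03, 0.03 and 0.08 over all genes tested, so the 8 did not move together as a set. The 3 comparisons share the WT library, and an error in that library would enter all of them.

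The stromal cells of the libraries also differed in other measures. Their median mitochondrial share was 3.61%, 5.89%, 0.423% and 9.62%, and a list of RNAs kept in the nucleus summed to 32102, 38813, 24232 and 41346 CPM. Their part in the results was not tested.

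The makeup of the stromal class differed as well. Cells of the Pi16 subset (Pi16, Dpp4, Sema3c, Cd55 and Anxa3), which hold the features of early adipose progenitors, were 59.8%, 25.4%, 2.30% and 10.4% of stromal cells. Cells of the Cxcl14 subset (Cxcl14, Gdf10, Pparg, Icam1 and Sparcl1), which hold those of committed preadipocytes, were 1.09%, 12.2%, 67.4% and 29.7%. Cells of the Cilp subset (Cilp, Eln, Apod, Fmod and Comp), fibroblasts rich in elastic and cartilage-type matrix, were 2.30%, 5.39%, 0.937% and 1.06%. The remaining 29.2% to 58.6% of stromal cells, apart from a few of a Has1 subset, passed no subset gate.

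Within a library, Nid2 and Hspg2 were higher in the Cxcl14 than in the Pi16 subset. In db/db 8w, Nid2 was at 119 CPM in 827 Cxcl14 cells and 12.9 CPM in 1723 Pi16 cells, a 9.20-fold difference (interval 7.38 to 11.6), and Hspg2 was at 676 and 315 CPM, a 2.15-fold difference. In HFD, Nid2 was at 93.7 and 22.3 CPM in the 476 and 167 cells of these subsets and Hspg2 at 480 and 222 CPM. The same order held in WT, where only 48 cells made up the Cxcl14 subset, with Nid2 at 79.4 and 18.5 CPM and Hspg2 at 591 and 240 CPM.

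Lamb2 stood on the other side in both obese libraries, at 120 CPM in Cxcl14 cells against 260 in Pi16 cells of db/db 8w and at 87.8 against 286 CPM in HFD. In WT its levels were 287 and 336 CPM, and the interval of that log2 ratio, -0.56 to 0.08, held 0. Lama4 and Nid1 were lower in Cxcl14 than in Pi16 cells of all 3 libraries, with log2 ratios of -0.75 to -0.45 and of -0.87 to -0.65. Lamb1 was higher in Cxcl14 cells, with log2 ratios of 0.46 to 0.70.

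Thus 2 of 8 genes were called higher and 1 lower in the Cxcl14 than in the Pi16 subset in both libraries with enough cells. In db/db 8w, 5.08% of 6045 genes were called higher and 8.01% lower, and in HFD 7.48% of 6099 were called higher and 8.54% lower. The Cxcl14 gate uses Pparg and Cxcl14 and the Pi16 gate Dpp4 and Pi16, and none of the 8 genes, so their UMIs did not place a cell in a subset. The gate lists and the 8 genes were, however, chosen with earlier results of these data known.

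**Figure D2:**
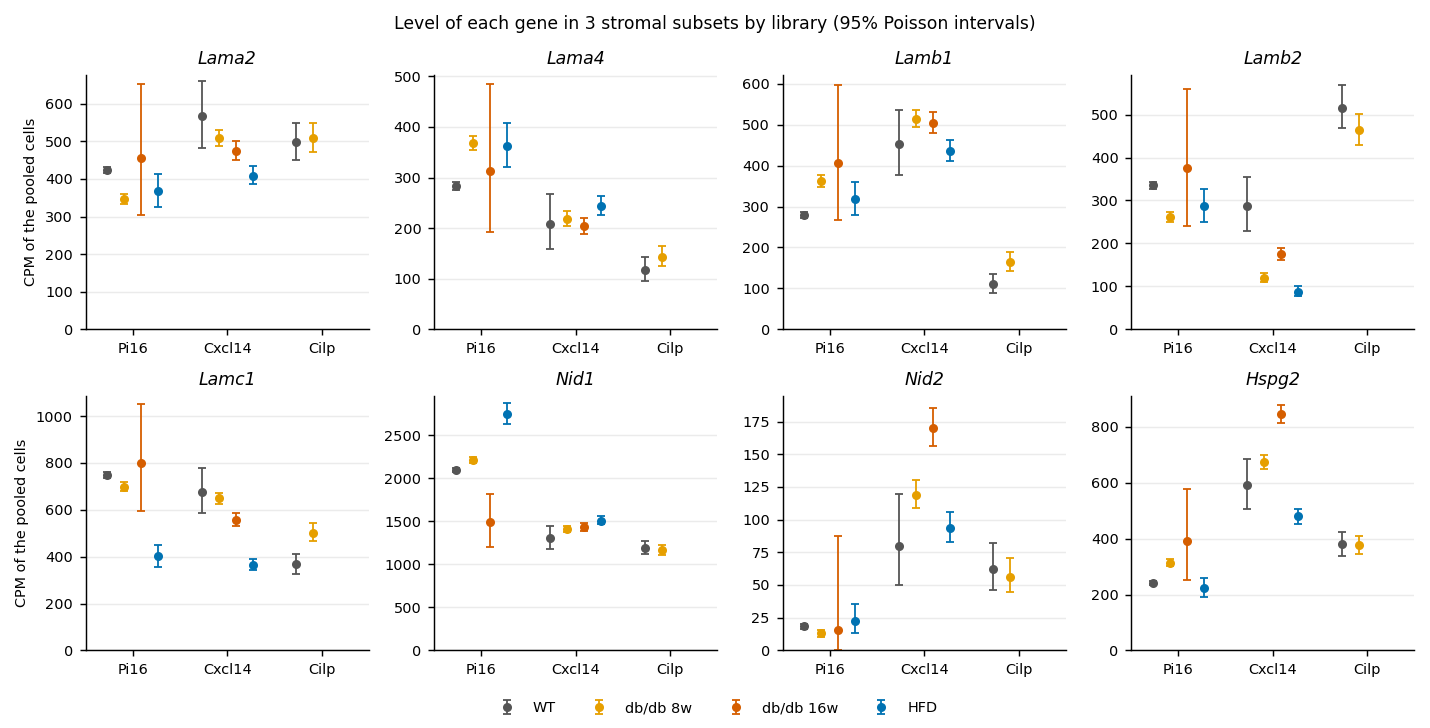
CPM of the 8 genes in cells of the Pi16, Cxcl14 and Cilp stromal subsets by library, with 95% Poisson intervals and axes from 0. The points for Pi16 in db/db 16w and for Cxcl14 in WT rest on 27 and 48 cells, and Cilp is drawn for WT and db/db 8w only. Nid2 and Hspg2 are higher in Cxcl14 than in Pi16 cells of each library, while Lamb2 is highest in Cilp cells.

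Nid2 and Hspg2 were also higher in Cilp than in Pi16 cells. In WT Nid2 was at 62.4 against 18.5 CPM and Hspg2 at 379 against 240 CPM. In db/db 8w these were 56.3 against 12.9 CPM and 377 against 315 CPM. In HFD, stromal cells of no subset held Nid2 at 99.0 CPM. Levels above those of Pi16 cells were thus not particular to the Cxcl14 subset. The Cilp subset had a laminin profile of its own. In WT (101 cells) Lamb2 was at 517 CPM against 336 in Pi16 cells, while Lamb1 was at 110 against 279 CPM and Lama4 at 117 against 283 CPM. In db/db 8w (365 cells) the same genes were at 464 against 260, 165 against 362 and 144 against 368 CPM. Lamb1 thus held 17.5% and 26.2% of beta chain UMIs in Cilp cells of WT and db/db 8w, against 45.4% and 58.2% in Pi16 cells. In Cxcl14 cells it held 61.2%, 81.1%, 74.3% and 83.3%. The part of subset makeup was weighed for the level of each beta chain, as given below, and not for the Lamb1 share.

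Subset makeup and levels within subsets could be set side by side by giving the WT subsets the weights they have in an obese library. Weighted to db/db 16w, the WT level of Nid2 was 66.2 CPM in place of 27.2, and the measured level was 152 CPM. The same weights gave 502 CPM for Hspg2 in place of 270, and the measured level was 799 CPM. Of the log2 difference to WT, 1.28 of Nid2 and 0.90 of Hspg2 went with the weights, and 1.20 and 0.67 were left. The part left includes any difference in makeup among the cells that passed no subset gate, which the weights cannot take up. For Nid2 in db/db 8w the weights went with 0.52 and 0.70 was left, and in HFD these parts were 0.81 and 0.94. The weighting to db/db 16w takes most of its WT value from the 48 Cxcl14 cells of WT. Within the Cxcl14 gate the log2 ratio of Nid2 to WT was 1.10 (interval 0.50 to 1.77) in db/db 16w, while those of db/db 8w (0.58, interval -0.02 to 1.25) and HFD (0.24, interval -0.38 to 0.92) held 0. Within the Pi16 gate Nid2 was lower in db/db 8w than in WT (-0.52, interval -0.86 to -0.19), while the ratio of HFD (0.27, interval -0.52 to 0.97) held 0. In stromal cells that passed no subset gate the log2 ratios of Nid2 to WT were 1.04, 1.69 and 1.47. What these cells were in each library was not resolved.

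In HFD the weights went with 0.50 of the log2 difference of Hspg2, and 0.12 was left. Lamb2 was the reverse case, since the weights moved its WT level only from 330 to 309 CPM, while HFD was at 133 CPM. Weighted to each obese library, the WT level of Lamb2 was 325, 296 and 309 CPM, against measured levels of 236, 199 and 133 CPM. That of Lamb1 was 261, 381 and 291 CPM, against 353, 455 and 411 CPM. Lamb2 was lower in obese libraries within the Cxcl14 gate, at 287 CPM in WT against 120, 175 and 87.8 CPM. Within the Pi16 gate WT cells were at 336 CPM, HFD cells at 286 and db/db 8w cells at 260, while the 27 cells of db/db 16w were at 376 CPM (interval 241 to 560). Lamc1 in HFD was lower in both gates, at 401 against 748 CPM in Pi16 cells and 365 against 677 CPM in Cxcl14 cells. Hspg2 within the Cxcl14 gate was higher in db/db 16w (845 CPM) than in db/db 8w (676 CPM), WT (591 CPM) and HFD (480 CPM). For Nid1, -0.18, -0.41 and -0.29 of the log2 difference to WT went with the weights, and -0.05, -0.02 and 0.21 were left.

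Endothelial cells held less of most of these transcripts than stromal cells of the same library, which the plot of levels by class shows. Lama2 was close to absent from them, with 1, 2 and 37 UMIs in the obese libraries (5.91, 1.24 and 6.70 CPM), against 415 to 458 CPM in stromal cells. Its log2 ratio of endothelial to stromal level was -6.16 (interval -11.46 to -3.68), -8.53 (-11.58 to -6.68) and -5.95 (-6.46 to -5.49). As a share of its stromal level, Lama2 in endothelial cells was at 1.40%, 0.270% and 1.62%, while Serpinf1, which the gates did not use, was at 2.14%, 0.162% and 1.44%. Gsn, another stromal marker left out of the gates, was at 2.71%, 0.416% and 1.71%. In immune cells Lama2 was at 0.852%, 0.0784% and 0.818% of its stromal level. Lama2 in endothelial cells was thus near the levels at which Serpinf1 and Gsn, stromal transcripts outside the gates, were found there. In HFD its log2 ratio depended on the gate, at -8.21 with a stricter and -5.24 with a looser one.

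**Figure D3:**
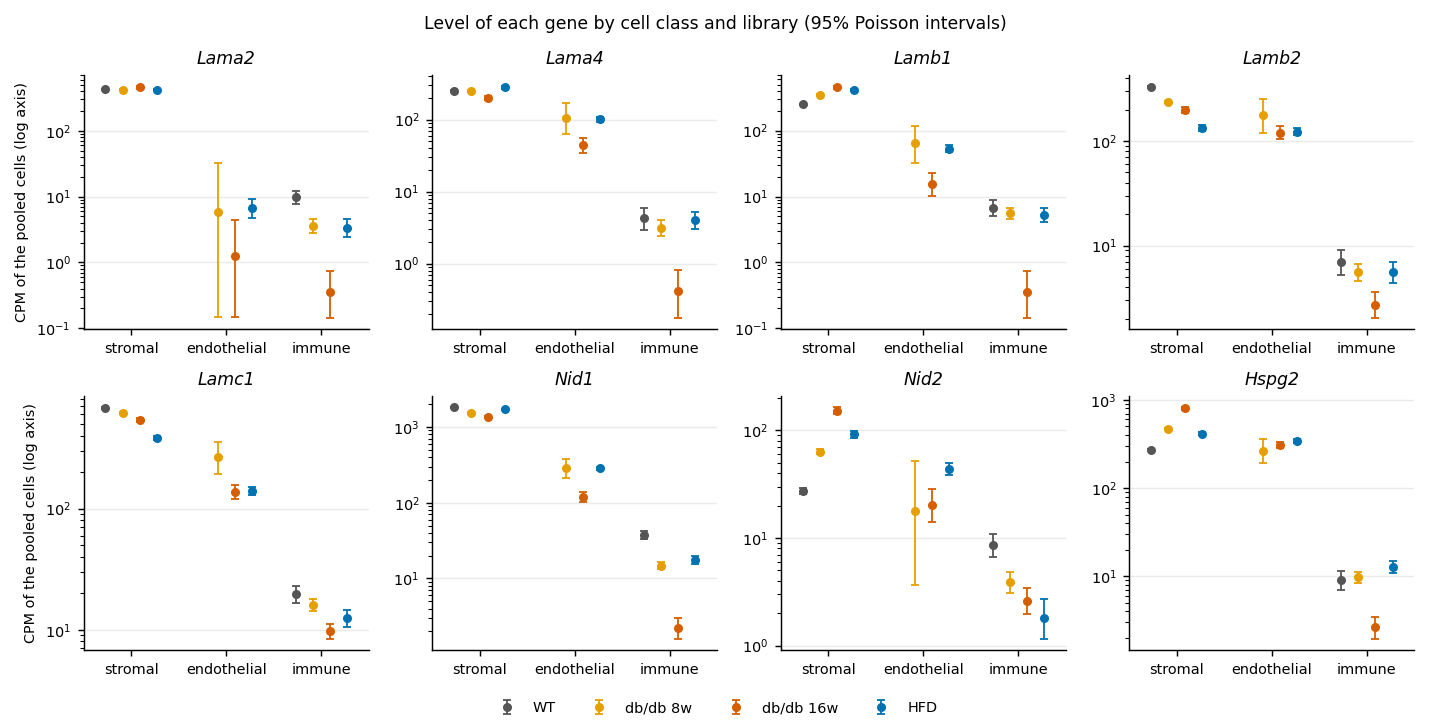
CPM of the 8 genes on log axes in stromal, endothelial and immune cells of each library, with 95% Poisson intervals. WT is left out of the endothelial cells, of which it had 10. Stromal levels are the highest for each gene, and the endothelial level of Lama2 is near its immune level, 6.70 against 3.39 CPM in HFD, with those of the other 7 genes further above theirs.

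Lama4 was the alpha chain of the 8 genes that endothelial cells held. It was at 106, 43.9 and 101 CPM, 22.0% to 42.2% of its stromal level and above the 0.411 to 3.99 CPM of immune cells. Of the UMIs of Lama4 and Lama2 together, Lama4 held 94.7%, 97.3% and 93.8% in the endothelial cells of these libraries, and 37.4%, 30.4% and 40.4% in their stromal cells. In WT stromal cells it held 37.0%.

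Lamb2 differed least between the classes, at 177 against 236 CPM, 121 against 199 CPM and, in HFD, 123 against 133 CPM. The intervals of its log2 ratio in db/db 8w (-0.98 to 0.10) and HFD (-0.26 to 0.02) held 0. Lamb1 was at 65.0, 15.5 and 53.4 CPM in endothelial cells, 5.43-, 29.4- and 7.70-fold below stromal cells. In db/db 8w its 11 UMIs came from 2.63% of the 76 cells, and the log2 ratio of -2.44 became -4.35 as a mean of per-cell CPM and -4.08 without the 10% of cells with the most UMIs. Lamb1 held 26.8% (from the same few cells), 11.4% and 30.3% of the beta chain UMIs of endothelial cells, each below the share in stromal cells of the same library.

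Hspg2 was at 266, 308 and 341 CPM in endothelial cells, 56.4%, 38.6% and 82.6% of its stromal level. It had a UMI in 27.4%, 23.2% and 28.1% of endothelial cells thinned to 1000 UMIs, and in 1.14%, 0.400% and 1.29% of immune cells. Unthinned shares of Hspg2 were 42.1%, 27.997% and 68.1% of endothelial cells and, in immune cells of these libraries, 5.91%, 1.41% and 7.66%. The endothelial cells of db/db 16w had a median of 1009 UMIs and those of HFD 4384. Lamc1 was at 266, 137 and 140 CPM, Nid1 at 284, 120 and 285 CPM and Nid2 at 17.7 (3 UMIs), 20.4 and 43.7 CPM.

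In db/db 8w, 0 of 8 genes were called higher in endothelial than in stromal cells and 6 lower (not Lamb2 or Hspg2), where 26.2% of 6355 genes were called higher and 17.7% lower. In db/db 16w, 0 were called higher and 7 lower (not Lamb2), where 18.5% of 5842 genes were called higher and 20.9% lower. In HFD, 0 were called higher and 6 lower (not Lamb2 or Hspg2), where 16.7% of 6310 genes were called higher and 13.6% lower. The median log2 ratio of the 8 was -1.54, -2.54 and -1.47, against 0.29, -0.03 and 0.19 over all genes tested. With 76 endothelial cells, db/db 8w gives the least precise of these values.

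**Figure D4:**
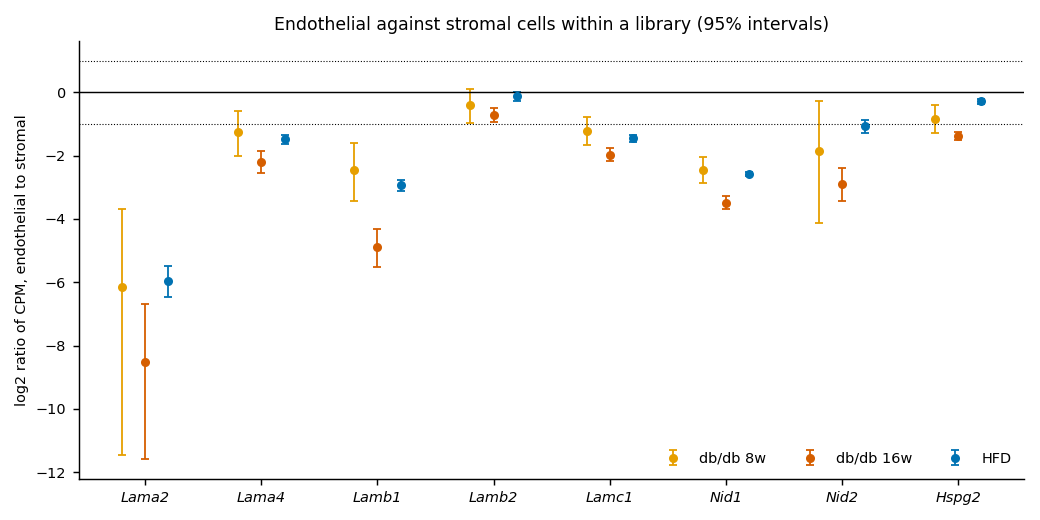
Log2 ratio of endothelial to stromal CPM within each obese library, with 95% intervals and dotted lines at 2-fold. Lama2 is the lowest in each library, and Lamb2 and Hspg2 lie nearest 0.

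Between the 2 libraries with over 1000 endothelial cells, 4 of the 7 genes with a mean of at least 20 CPM were called higher in HFD than in db/db 16w and 0 lower, where 17.7% of 5780 genes were called higher and 6.63% lower. Lama4, Lamb1, Nid1 and Nid2 were higher by 1.20, 1.79, 1.25 and 1.10 on the log2 scale, and Lama2, under that mean, by 2.44 (interval 0.48 to 5.54) on 37 and 2 UMIs. Lamb2, Lamc1 and Hspg2 differed by 0.03, 0.03 and 0.15. In the same endothelial cells the summed stromal list was at 304 CPM in HFD and 65.0 CPM in db/db 16w, the Serpinf1 level at 18.5 and 2.48 CPM, and a list of brown adipocyte genes at 505 and 6.81 CPM. Their part in these differences was not tested.

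**Figure D5:**
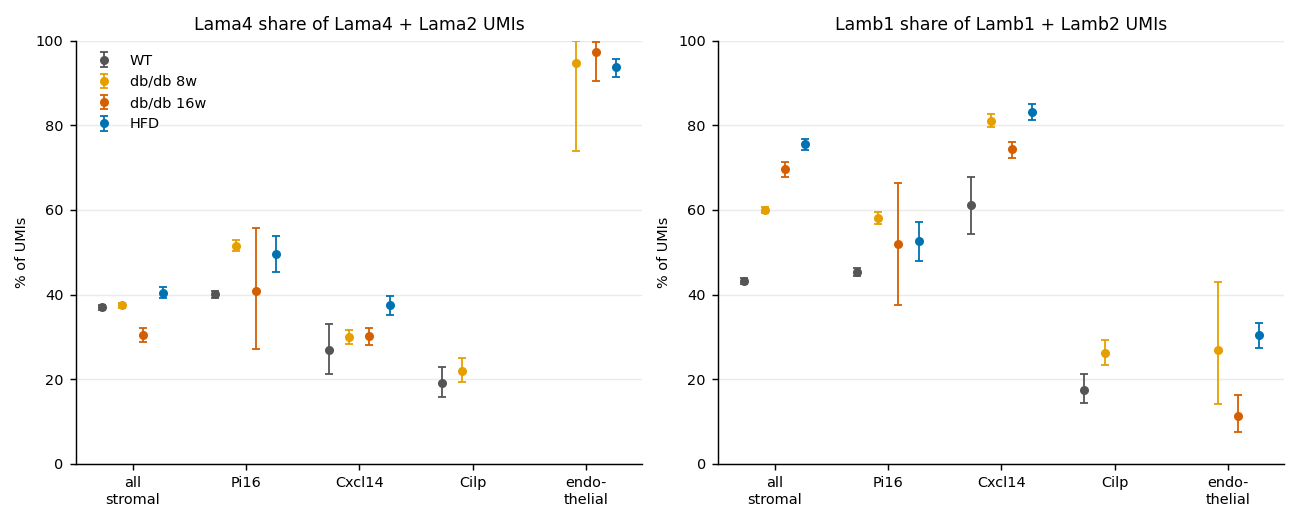
Percent of Lama4 plus Lama2 UMIs that were Lama4 (left) and of Lamb1 plus Lamb2 UMIs that were Lamb1 (right), by class, stromal subset and library, with exact binomial 95% intervals. Endothelial cells hold mostly Lama4 and mostly Lamb2, and the Lamb1 share of all stromal cells is higher than WT in each obese library.

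Chains of 1 laminin trimer were seldom caught in the same cell once cells were thinned to 1000 UMIs. At that depth single chains were also missed often, with 20.9% (Lama4) to 46.8% (Lamc1) of WT stromal cells holding one. In HFD endothelial cells no chain was found in more than 11.2% (Lamb2). The share that independent detection would give was not computed, so these values do not show whether chains go together. A UMI of an alpha, a beta and a gamma chain among the 8 genes was found in 10.7%, 10.4%, 14.2% and 6.48% of stromal cells thinned to 1000 UMIs. The unthinned shares were 74.7%, 50.4%, 58.4% and 69.9%. In endothelial cells of the same depth it was found in 0 of 62, 0 of 646 and 1 of 1130, and the upper bounds of the exact intervals were 5.78%, 0.569% and 0.492%. Lama2 and Lama4 were found together in 6.72%, 7.22%, 6.40% and 7.23% of stromal cells at this depth, beside 0% of immune cells in each library. UMIs of both alpha chains were thus found under the same stromal barcodes, from which doublets within the class had not been removed.

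Other genes of the basement membrane were taken from lists. Of 6 other laminin chains only Lama5, the alpha 5 chain of mature vessel walls, was tested in the comparison of classes, and it was called higher in endothelial cells of all 3 libraries, at 154, 110 and 70.6 CPM against 0.449, 0.678 and 2.56 CPM in stromal cells. Of 9 laminin receptors, 4 of 6 tested in db/db 8w, 3 of 5 in db/db 16w and 3 of 5 in HFD were called higher in endothelial cells. Called lower were 0, 1 and 0. Over all genes tested, 26.2%, 18.5% and 16.7% were called higher and 17.7%, 20.9% and 13.6% lower. Among the receptors called higher was Itga6, a laminin-binding integrin subunit, at 645, 244 and 652 CPM against 2.73, 4.29 and 26.3 CPM. Of 10 other basement membrane genes, 7, 4 and 5 were tested, of which 3, 1 and 3 were called higher and 3, 2 and 2 lower. Tinagl1 was called higher in endothelial cells of all 3 libraries, at 893, 483 and 371 CPM against at most 15.4 CPM in stromal cells. Sparc, a collagen-binding matricellular protein, was called lower, at 2253, 1653 and 3234 CPM against 9334, 11631 and 10552 CPM, as were Smoc2 and the collagen gene Col15a1. Endothelial cells thus held Lama5 and Lama4, and stromal cells Lama2 and Lama4.

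The basement membrane collagens as a list stood apart from the 8 genes as a set in the comparison with WT. Of 8 such genes, 7, 6 and 7 were tested in the stromal cells of the obese libraries. In each, 4 were called higher (Col4a1, Col4a2, Col15a1 and Col18a1), and 0, 1 and 1 were called lower. Over all genes tested, 3.2%, 12.4% and 7.85% were called higher and 2.48%, 12.8% and 7.14% lower. Col4a1, the main chain of type IV collagen with Col4a2, was at 803, 2300, 3053 and 3055 CPM. Col15a1 was at 59.9, 456, 939 and 817 CPM and Col18a1 at 30.0, 174, 511 and 216 CPM. The median log2 ratio of the list was 1.52, 2.40 and 1.93, while that of the 8 genes was -0.01, -0.12 and 0.06. Of the 8 genes, Lamb1, Nid2 and Hspg2 were higher than WT in all 3, as the 4 named collagens were. Of the 6 other laminin chains, 1 was tested in each comparison, at log2 ratios of -0.88, -2.90 and -2.03, called lower in db/db 16w and HFD. Within libraries, 5 of 6 collagens tested in db/db 8w and 5 of 5 in HFD were called higher in Cxcl14 than in Pi16 cells. Over all genes tested there, 5.08% and 7.48% were called higher. The part of subset makeup in the collagen differences to WT was not tested.

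Over 11 class and library levels (4 stromal, 3 endothelial and 4 immune), the genes nearest to Lama2 in order among 6273 were Serpinf1 (Spearman's rho 0.982), Adamts2 (0.973) and Mmp2, Thbs2 and Gpx3 (0.964 each). Those nearest to Lama4 were Thsd7a (0.991) and Zfpm2, Prelp, Kdm5b and Dsel (0.982 each, with 5 genes tied at that value). Lama2 and Lama4 had a rho of 0.791 with each other, Lama2 had 0.664 to 0.864 with the 7 other genes, and Lama4 had 0.791 to 0.964. The points share libraries, depth and the 3 classes, so these values describe the order of levels only.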

How the data were processed

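The authors made 10x Genomics 3′ libraries, each from the pooled SVF of 3 mice, and aligned and counted them with Cell Ranger on mm10. The labels and the study name version 7.1.0, the file headers 6.0.0, and whether intronic reads were counted is not given in the sources used here. The deposited values were raw UMI counts per gene and barcode, in whole numbers and for called barcodes only. Libraries held 28504069 to 61828295 UMIs.

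The study's limits were applied to barcodes: more than 250 but fewer than 6000 genes, more than 500 but fewer than 30000 UMIs, and a mitochondrial share below 15%. No doublet caller was run. A cell entered 1 of 5 classes with at least 3 UMIs from at least 2 genes of its list and at least 75% of the UMIs of the 5 lists, and a subset with at least 2 UMIs and 75%, and doublets within a class were not removed. Pairs of libraries shared 7 to 25 barcodes. UMIs were summed per class and library and divided by the total (CPM). Levels were given exact Poisson and shares exact binomial 95% intervals (Clopper-Pearson) and ratios exact conditional binomial intervals, for counting error only. A gene at 0 was set to a floor of 3 counts. Calls needed a ratio of 2, a mean of 20 CPM and 50 cells per group. Groups of 1 library allowed no test. Gates and calls were tested on simulated data. All 8 genes are named, and other lists are given by counts plus the genes called alike in each library, at most 3 per direction by size. Of those alike in order, 5 are named, ties broken by Pearson's r.

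The members and lists were chosen with earlier results of these data known. Alternatives covered stricter and looser gates, quality limits, the CPM total, per-cell averaging, cell depth, nuclear RNA and the subset gates. Coordinates are from GENCODE M21 (32235 of 32285 IDs matched, 99.85%) and promoters from RefSeq. Python 3.11.15, numpy 2.4.6, scipy 1.17.1 and pandas 2.3.3 were used.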

Additional observations from a re-analysis of the deposited data

Results flagged for a closer look

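Lama4 in stromal cells was higher in HFD than in WT (log2 ratio 0.16, interval 0.10 to 0.23) and lower in db/db 16w than in WT (-0.33, interval -0.43 to -0.23), at 282, 200 and 251 CPM in HFD, db/db 16w and WT. It was singled out because the ratios have opposite signs under the same contrast with WT. The difference between them was not tested, since each group is 1 library, and both ratios share the WT library. Within the Cxcl14 gate, the corresponding levels were 245, 204 and 207 CPM, the last from 48 cells. Within the Pi16 gate the log2 ratio of HFD to WT was 0.36 (interval 0.18 to 0.53). That of db/db 16w, from 27 cells, was 0.15 and its interval held 0 (-0.56 to 0.78). With WT weighted to the subsets of each library, the ratios were 0.36 in HFD and -0.08 in db/db 16w.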

How the results depend on the processing

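No paired analysis was possible because each group was 1 library and the labels give no replicate numbers. Counts of called genes were within 1.5 times the value given in 146 recomputations and not in 4. Lama4 shares stayed within their interval in 35 and not in 6, and single log2 ratios in 499, while 121 moved outside it and 4 changed sign although their interval had left out 0. A further 10 changed sign where the interval held 0. Without cells over 4.09% nuclear RNA, Lama2 in stromal cells of db/db 16w against WT was -0.0912 (0.10 as given), and the Lama4 share was 38.5%, 32.3% and 41.9% in stromal cells of the younger db/db, older db/db and HFD mice and 100% in endothelial cells of db/db 8w. With WT weighted to the obese library's subsets, an alternative chosen after seeing the data, Lama2 in db/db 16w was at -0.19 and Nid1 in HFD at 0.21 (-0.08 as given). Nid1 in HFD was 0.0394 as a mean of per-cell CPM. The endothelial Lama4 share in HFD was 98.6% with the stricter and 90.5% with the looser gate (93.8% as given). Between Cxcl14 and Pi16 cells of db/db 8w, 1 gene was called higher and 0 lower by the mean of per-cell CPM, and 0 lower with Col15a1 and Col4a1 added to the Cxcl14 list. In HFD, 2 were called lower with the subset gate of 3 UMIs and 90%. The causes were not tested. The stricter gate left under 50 endothelial cells in db/db 8w and gave no value there. Depth limits mostly the endothelial values of db/db 8w and the WT Cxcl14 subset.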

Other observations

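Values were also found for cells outside the comparisons. Mural cells, the pericytes and smooth muscle cells of vessels, passed their gate in 29 cells of db/db 16w and 10 of HFD. In the 29 cells Hspg2 was at 428 CPM on 19 UMIs (interval 258 to 668), Nid1 at 721 CPM on 32 UMIs (493 to 1018), and Lama2 and Lama4 at 203 and 90.1 CPM on 9 and 4 UMIs. Lamc3, another gamma chain, was at 27.6 CPM in stromal cells of HFD and at 0.0846, 1.31 and 0.452 CPM in those of WT and of both db/db ages.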
